A study of Caenorhabditis elegans with 2 samples.

Results

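The genes described here are the translation initiation and elongation factors and the aminoacyl-tRNA synthetases of C. elegans, examined for binding of SDC-2. They were taken by name from the protein-coding genes of the WBcel235 annotation: names that begin with eif-, eef-, iff-, ife- or ifg-, or that consist of 1 letter, ars- and a number. This gave 71 genes out of 19973 on the nuclear chromosomes, 39 factors and 32 synthetases, of which 68 were autosomal and 3 were on X (eef-1A.2, ife-2 and ife-4). Binding was measured by ChIP-seq, the sequencing of DNA fragments that an antibody, here against GFP, pulls down with a protein. The chromatin was from whole hermaphrodite late embryos of strain OP92, collected 3.25 hours after egg bleaching. All worms carried SDC-2 fused at the C terminus to GFP-FLAG, and the 2 biological replicates formed 1 group with no second condition. ChIP of an untagged strain and the control reads were not analysed here, and whether the worms also made untagged SDC-2 is not given in the sources used here.

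In hermaphrodites, SDC-2 recruits the dosage compensation complex to X, and the complex then reduces the output of X-linked genes. The genes described here build the machinery that the whole embryo uses for protein synthesis. Synthetases attach amino acids to tRNAs, initiation factors load the small ribosomal subunit and the initiator tRNA onto capped mRNA, and elongation factors deliver charged tRNAs and move the ribosome along. Many worm mRNAs are trans-spliced, so an annotated 5′ end can lie downstream of the place where transcription starts, and distances to it are distances to the annotation.

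Each peak carries a signal that the authors' peak caller gave it, which ranks peaks within a list but has its own scale in each list. The peaks kept by the authors at their cut on the irreproducible discovery rate (IDR), called IDR peaks, numbered 1343 on nuclear chromosomes, with signals of 82.4 to 21888 and a median of 111.8. The longer lists, which include background peaks, held 26639 nuclear peaks for the pooled replicates, 25174 for replicate 1 and 24434 for replicate 2. Without read counts in the lists, the depth of the libraries is unknown. A gene is said to have a summit where the highest point of a peak lay within 1000 bp of any of its annotated 5′ ends.

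An IDR summit was found at 9 of the 71 genes, 12.7% (exact Clopper-Pearson 95% interval 5.96 to 22.7%, which covers the number of genes counted only), beside 4.64% of all protein-coding genes. They were the elongation factor genes eef-1A.1 and eef-1A.2, the eIF5A gene iff-2, the eIF3 subunit genes eif-3.C and eif-3.E, the cap-binding genes ife-2 and ife-4, the exchange factor gene eif-2Bgamma and the synthetase gene ears-2. All 3 X genes had an IDR summit (interval 29.2 to 100%), where 11.2% of all X protein-coding genes did. Of the 68 autosomal genes 6 had one, 8.82% (interval 3.31 to 18.2%), where 3.60% of all autosomal genes did. No test was made of these differences, since the gene families were chosen with results of these data known. The intervals treat genes as independent draws, which genes taken by name are not, so they do not test these differences either.

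The summits at 6 of these genes, 3 on X and 3 on autosomes, are shown as the genomic sequence around the summit on the strand of the gene, 5′ to 3′, in RefSeq WBcel235 (the ce11 build), left off where an exon of a protein-coding gene begins. They let a reader compare both eEF1A genes and the cap-binding genes at the place where SDC-2 was found. Capitals mark AGACGCAG or its complement CTGCGTCT, which shared the largest excess of any 8-mer at all IDR summits with the overlapping GAGACGCA.
eef-1A.2, X:7823273-7823373, plus strand: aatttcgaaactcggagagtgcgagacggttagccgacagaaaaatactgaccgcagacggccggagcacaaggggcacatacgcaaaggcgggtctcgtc
ife-4, X:1103820-1103920, plus strand: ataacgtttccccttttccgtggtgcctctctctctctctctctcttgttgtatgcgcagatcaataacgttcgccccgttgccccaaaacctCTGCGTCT
ife-2, X:382846-382946, minus strand: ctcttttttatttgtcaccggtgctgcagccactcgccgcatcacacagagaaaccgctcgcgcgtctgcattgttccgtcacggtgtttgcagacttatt
eef-1A.1, III:6972076-6972176, minus strand: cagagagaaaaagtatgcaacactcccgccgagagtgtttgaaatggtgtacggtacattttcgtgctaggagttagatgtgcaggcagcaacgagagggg
iff-2, II:8561376-8561476, minus strand: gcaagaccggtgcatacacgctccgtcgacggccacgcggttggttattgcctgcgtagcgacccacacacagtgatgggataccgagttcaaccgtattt
ears-2, IV:390469-390555, minus strand: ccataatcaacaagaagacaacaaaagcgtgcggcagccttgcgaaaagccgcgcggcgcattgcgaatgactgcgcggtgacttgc

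The elongation factors had IDR summits at both genes for eEF1A, the GTPase that brings charged tRNAs to the ribosome, and at none of the other 4. These 2 of 6 stand beside 4.64% of all protein-coding genes, 11.2% of those on X and 3.60% of autosomal ones. On X, eef-1A.2 (X:7823654-7825769) had its peak at X:7823098-7823547, with the summit 331 bp upstream of the 5′ end. In the pooled call its signal was 194.7, while replicate 1 gave 101.8 and replicate 2 gave 91.96, at ranks 244, 215 and 302 of these lists. On chromosome III, eef-1A.1 (III:6970026-6971712) had its peak at III:6971901-6972350, with the summit 414 bp upstream. The pooled signal there was 91.4, with 41.4 for replicate 1 and 49.8 for replicate 2, at ranks 1073, 1335 and 1085, so the X copy ranked higher in all 3 lists. The summit at eef-1A.1 was closer to another gene, 127 bp from the divergent 5′ end of rfc-4, a replication factor C gene, and 41 bp from the 5′ end of the microRNA gene cel-mir-5549. The summit at eef-1A.2 had no other protein-coding 5′ end within 1000 bp, but the non-coding RNA gene R03G5.8 began 202 bp away. Both genes encode nearly the same protein, but of 34 words of 36 bases taken from each 201 bp summit window, all 34 occurred once in the genome, as they did at the other 7 genes.

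The remaining elongation factor genes lay below the IDR threshold. At eef-2, whose product moves the ribosome along the mRNA, the strongest pooled summit was 88 bp upstream, with a signal of 73.3 and rank 1772. The replicates differed there, with rank 5571 in replicate 1 (signal 25.0) and 1046 in replicate 2 (signal 50.6, at another summit). Pooled signals were 44.5 at eef-1G and 35.4 at eef-1B.2, 2 of the genes for the exchange factor of eEF1A, and eef-1B.1 had no summit in the pooled list and only weak ones in the replicates (15.6 and 18.5).

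Of the 6 cap-binding and scaffold genes, 2 had IDR summits (beside 4.64% of all protein-coding genes), and both were the X genes. Among all protein-coding genes the shares were 11.2% on X and 3.60% on autosomes. ife-2 and ife-4 encode isoforms of eIF4E, the protein that holds the mRNA cap. At ife-4 (X:1104212-1106251) the summit of the peak at X:1103645-1104094 lay 342 bp upstream, with a pooled signal of 103.5, with 53.6 for replicate 1 and 61.5 for replicate 2, at ranks 793, 709 and 669. At ife-2 (X:381385-382709) the summit of the peak at X:382671-383120 lay 187 bp upstream, with signals of 100.6, 59.6 and 41.7 and ranks 850, 574 and 1687. The last of these ranks lies outside the 1343 strongest peaks of replicate 2. The autosomal eIF4E genes had pooled signals of 41.6 (ife-1), 35.8 (ife-3) and 23.3 (ife-5), each below both X genes. ifg-1, which encodes the scaffold eIF4G, had no summit in the pooled list or in either replicate.

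Among the initiation factors, the multi-subunit factor eIF3, which holds the small ribosomal subunit, had IDR summits at 2 of 11 eif-3 genes. All 11 were autosomal, and the share was 18.2%, beside 3.60% of all autosomal genes. At eif-3.C (I:9976426-9979662) the summit of the peak at I:9979674-9980123 lay 237 bp upstream. The pooled signal was 112.6, with 52.3 for replicate 1 and 57.4 for replicate 2, at ranks 659, 747 and 790. At eif-3.E (I:10640465-10642281) the summit of the peak at I:10642225-10642674 lay 169 bp upstream, with signals of 99.7, 43.3 and 49.5 and ranks 869, 1167 and 1104. Weaker pooled summits were found at eif-3.B (75.6), eif-3.D (61.9) and eif-3.I (61.7). eif-3.F, eif-3.K and eif-3.L had none in the pooled list or in either replicate, and eif-3.J had summits only in the replicates (39.3 and 29.3). The eif-3 genes, taken by name only, therefore ranged from rank 659 of the pooled list to no summit.

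iff-2 had the third strongest summit of the 71 genes in the pooled call. It is a gene for eIF5A, which helps ribosomes through stretches that are slow to translate. At iff-2 (II:8559375-8561367) the summit of the peak at II:8561392-8561504 lay 59 bp upstream, with a pooled signal of 183, with 81.7 for replicate 1 and 102.4 for replicate 2, at ranks 275, 315 and 253. A snoRNA gene, F54C9.12, had its 5′ end 654 bp from this summit. The paralog iff-1 on chromosome III reached 40.7 in the pooled call. Thus 1 of the 2 eIF5A genes, both autosomal, had an IDR summit, beside 3.60% of all autosomal genes. Both eEF1A genes had one within 1000 bp, but with only the nearest gene counted per summit, eef-1A.1 gave way to rfc-4.

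eIF2 brings the initiator tRNA, and eIF2B recharges it with GTP. None of the 3 eIF2 genes, all autosomal, had an IDR summit, a count near the 3.60% of all autosomal genes. All 3 had a pooled summit, beside 44.5% of all autosomal genes. The strongest, at eif-2gamma, had a pooled signal of 74.8, with 32.8 for replicate 1 and 41.1 for replicate 2. That summit lay in a coding exon, 692 bp upstream of eif-2gamma but 83 bp from the 5′ end of tbca-1. Of the 5 eIF2B genes, all autosomal, eif-2Bgamma (II:6965800-6967648) had an IDR summit, beside 3.60% of all autosomal genes. The other 4 had none in the pooled list, where 44.5% of all autosomal genes had a summit. The eif-2Bgamma peak at II:6968378-6968827 was the most distant of the 9, with the summit 955 bp upstream. It lay inside an intron of C15F1.5 and 45 bp from the 5′ end of the snRNA gene sup-39. The pooled signal was 97.7, with 35.2 for replicate 1 and 65.9 for replicate 2, at ranks 913, 2108 and 574, so it was outside the 1343 strongest peaks of replicate 1. The other 6 eif genes, also autosomal, had no IDR summit, a count near the 3.60% of all autosomal genes. All 6 had a pooled summit (beside 44.5%), with signals from 23.8 at eif-1 to 60.6 at eif-4A3, a component of the exon junction complex.

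All 32 synthetase genes were autosomal, and 1 of them had an IDR summit, 3.12%, near the 3.60% of all autosomal protein-coding genes. Of the 36 autosomal factor genes 5 had one, 13.9%, and the other 3 factor genes with a summit were those on X. The synthetase gene was ears-2, for a mitochondrial glutamyl-tRNA synthetase, which held the strongest summit of the 71 genes in the pooled call and in replicate 2, while eef-1A.2 was stronger in replicate 1. At ears-2 (IV:388686-390468) the summit of the peak at IV:390373-390601 lay 37 bp upstream, with a pooled signal of 219, with 94.1 for replicate 1 and 121.6 for replicate 2, at ranks 205, 245 and 189. The same summit lay 55 bp upstream of uncp-18, which is transcribed the other way, so it cannot be assigned to either gene. None of the 21 synthetase genes whose names end in -1 or -3, most of which encode cytosolic enzymes, had an IDR summit, a count near the 3.60% of autosomal genes. Their pooled signals ran from 22.6 at fars-3 to 79.0 at mars-1. A pooled summit was found at 14 of the 21 and not at the other 7, beside 44.5% of all autosomal genes. Of the 11 genes whose names end in -2, most of which encode mitochondrial enzymes, 5 had a pooled summit and 6 had none. That count is near the 44.5% of all autosomal genes with a pooled summit. Genes of this group other than ears-2 reached at most 56.8, at aars-2. The cytosolic glutamyl enzyme gene, ears-1, had no summit in any list.

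**Figure D1:**
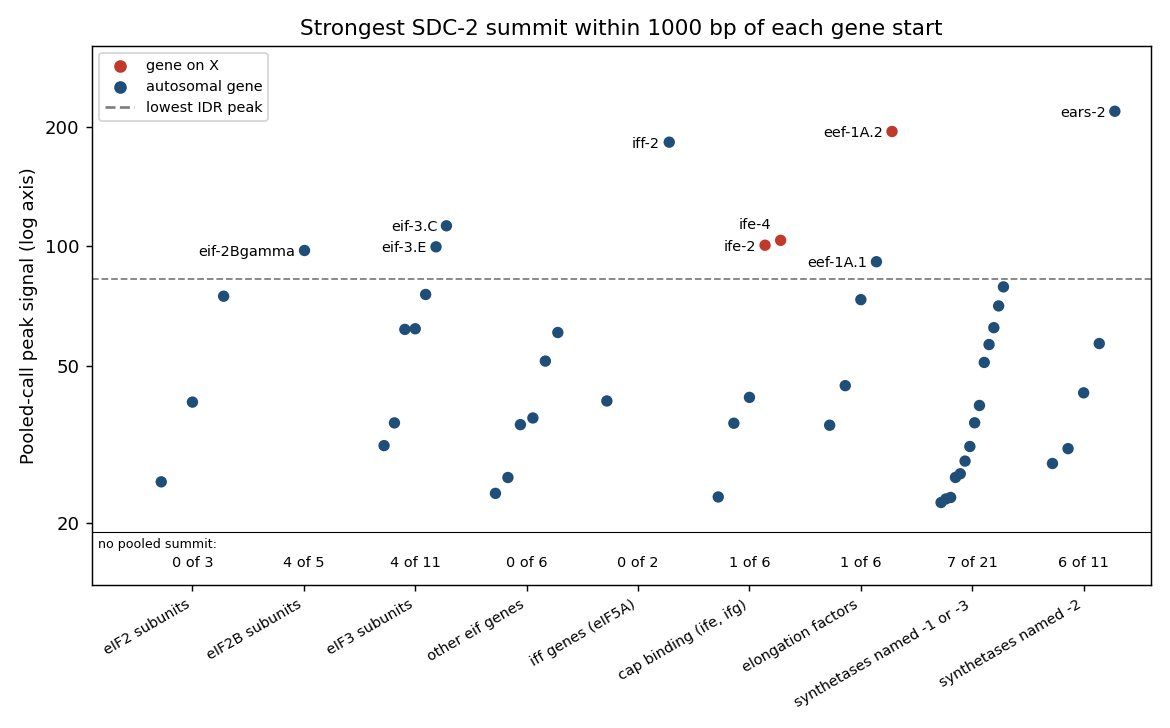
Signal of the strongest pooled-call summit within 1000 bp of each gene (log axis), by role. Red points are X genes, blue points autosomal genes, the dashed line is the lowest IDR peak (82.4), and the row at the bottom counts genes with no pooled summit. The 9 named genes lie above the line, from 91.4 at eef-1A.1 to 219 at ears-2.

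Several genes lay just below the IDR threshold. The strongest was mars-1, for methionyl-tRNA synthetase, with its summit 345 bp upstream and a pooled signal of 79.0, with 41.7 for replicate 1 and 34.4 for replicate 2. Next came eif-3.B (75.6, 39.0 and 38.5 in the same order), eif-2gamma and eef-2. At aars-1, for alanyl-tRNA synthetase, the summit lay 70 bp downstream of the 5′ end with a pooled signal of 70.7, and the replicates differed, with rank 9496 in replicate 1 (20.6) and 1073 in replicate 2 (50.1). kars-1 (62.3), eif-3.D, eif-3.I, eif-4A3 and aars-2 completed the 10 strongest genes without an IDR summit. The distance limit mattered for 2 further genes. ife-3 had an IDR summit 1175 bp upstream (87.6), and fars-1 had one 1375 bp downstream of its nearest 5′ end (156.3), while eif-2Bgamma, at 955 bp, was the last one inside.

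In the pooled list, 48 of the 71 genes had a summit (67.6%), beside 46.1% of all protein-coding genes. The replicates gave 46 genes (64.8%, beside 45.5%) and 47 genes (66.2%, beside 43.7%). On the autosomes alone the pooled list gave 45 of 68 (66.2%, beside 44.5%). Among pooled peaks of rank 2000 or better there were 14 genes (19.7%, beside 6.62%), at rank 4000 or better 20 (28.2%, beside 11.4%), and at rank 8000 or better 25 (35.2%, beside 19.4%). The best pooled signal had a median of 42.1 over the 48 genes and of 37.1 over all genes with a summit. In the pooled list and in both replicates, 15 genes had none (21.1%, beside 40.0%), namely 10 synthetase genes and ifg-1, eif-2Balpha, eif-3.F, eif-3.K and eif-3.L.

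The 71 genes had more annotated 5′ ends than the average gene, which widens the sequence searched. Only 34 of them (47.9%) had a single 5′ end, against 72.6% of all protein-coding genes. With only the 5′ end of the gene record, 9 genes had an IDR summit, the same 9, beside 4.25% of all genes. Of the 9 genes, 8 had a single 5′ end (88.9%), beside 58.0% of all 926 genes with an IDR summit. Worm genes can also be transcribed in operons, and a same-strand gene ended less than 500 bp upstream of 18 of the 71 genes, of which 2 had an IDR summit (11.1%, beside 2.77% of all genes in that position). Of the other 53 genes 7 had one (13.2%, beside 5.05%).

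Most genes with an IDR summit ranked high in both replicates, which follows in part from selection, since the IDR list was derived from both. Among the 1343 strongest peaks of each replicate, replicate 1 had summits at 9 of the 71 genes (beside 4.58% of all genes) and replicate 2 at 10 (beside 4.49%). Shared were 7 genes, 77.8% of the replicate 1 list and 70.0% of the replicate 2 list. Over all protein-coding genes these shares were 67.3 and 68.6%, so the overlap was not particular to these genes. Replicate 1 added ife-2 and mars-1, and replicate 2 added eif-2Bgamma, aars-1 and eef-2. Over the 38 genes with a summit in both full lists, Spearman's rho of the best signals was 0.610, and over all 6211 such genes it was 0.583, both as descriptions across genes of libraries that share a control alignment.

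**Figure D2:**
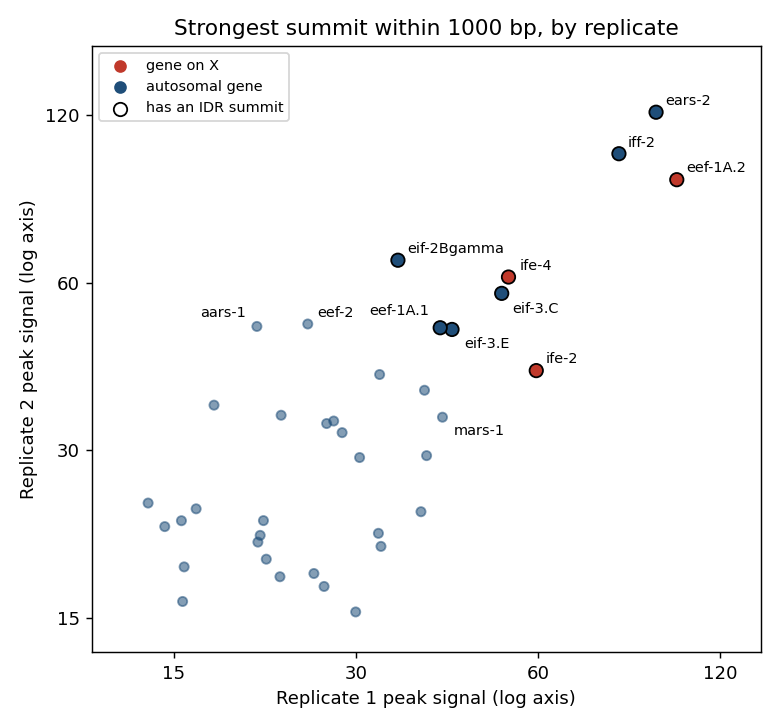
Signal of the strongest summit within 1000 bp in replicate 1 (x) and replicate 2 (y), both log axes, for the 38 genes with a summit in both. Outlined points have an IDR summit. ears-2, iff-2 and eef-1A.2 stand apart in both replicates, while eef-2 and aars-1 are high in replicate 2 only.

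All 9 IDR summits lay upstream of the gene's nearest 5′ end, at a median of 237 bp, and 8 lay within 500 bp. Over all 926 genes with an IDR summit 86.0% lay upstream, at a median distance of 296.5 bp in either direction, and 70.6% lay within 500 bp. The X summits were at 187, 331 and 342 bp and the autosomal summits at 37 to 955 bp, so the ranges overlapped. In sequence class, 8 summits were intergenic and 1 lay in an intron, where 71.7% of all 781 IDR summits at gene starts were intergenic. Of the 9 summits 4, all autosomal, had a second protein-coding gene within 1000 bp (44.4%, beside 22.8%). On the autosomes alone this was 4 of 6 (66.7%, beside 32.2%), and on X 0 of 3 (beside 7.41%).

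**Figure D3:**
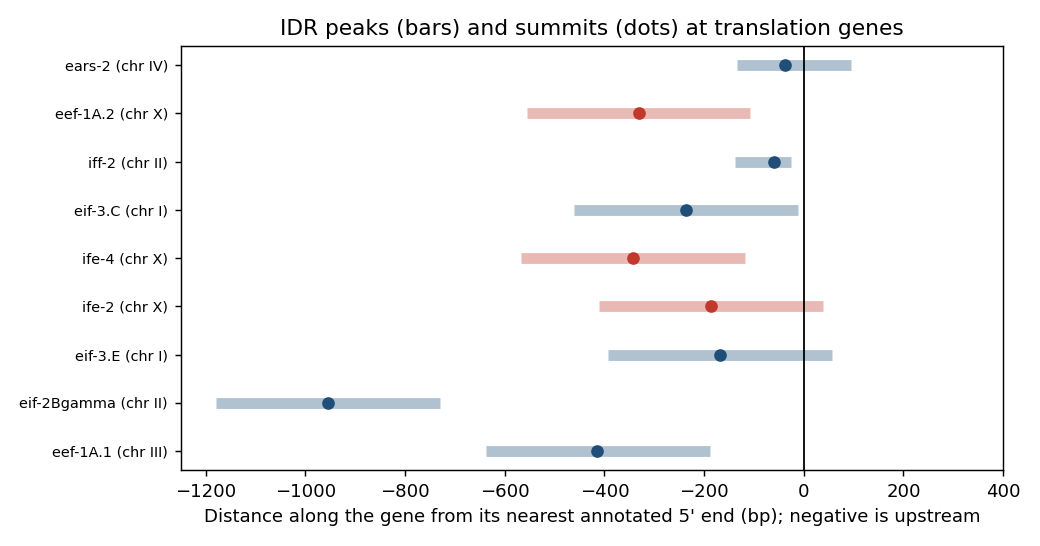
IDR peaks (bars) and summits (dots) along each gene, in bp from its nearest annotated 5′ end at 0, with upstream to the left; red is X and blue autosomal. Summits run from 37 bp upstream at ears-2 to 955 bp upstream at eif-2Bgamma, and genes are ordered by pooled signal.

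On X, the signals at the 3 genes (100.6, 103.5 and 194.7) had a median of 103.5, where the 297 X summits at gene starts had a median of 127.3. The 6 autosomal summits ran from 91.4 to 219 with a median of 106.1, where the 484 autosomal summits had 104.2. The ranges on X and on autosomes overlapped, and the highest value was autosomal. None of the 9 summits lay within 1000 bp of the 5′ end of a tRNA gene, where 7.81% of the 781 summits did, and 1, at iff-2, lay as close to a snoRNA gene, where 5.25% did.

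The GC content at the 9 summits spanned a wide range. In the 201 bp window it had a median of 44.3% (38.8% at eef-1A.1 to 56.2% at eef-1A.2), beside 48.8% over the 781 summits. The 8-mer AGACGCAG, sought on both strands, lay in 12.2% of all 1343 IDR windows, in 0.707% of windows 2000 bp to either side and in 1.69% of windows of this length around all protein-coding 5′ ends. It was present at 1 of the 9 genes, ife-4, as the capitals in the sequence above show. GAGAGAGA, in 12.0% of IDR windows and 2.00% of 5′ end windows, was present at ife-4 and eef-1A.2. Any of the 5 leading 8-mers, which overlap each other, was present at 2 of 9 genes (22.2%) and in 24.1% of the 781 windows.

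Other genes of translation, taken from a list of 29 names of which 27 were annotated, had IDR summits at 5 genes (18.5%, beside 4.64% of all protein-coding genes). These were 1 of 2 X genes (beside 11.2%) and 4 of 25 autosomal genes (16.0%, beside 3.60%). On X, pab-2, which encodes a poly(A)-binding protein, had a summit 82 bp upstream with a pooled signal of 270.2, with 137.2 for replicate 1 and 136.4 for replicate 2, above each of the 71 genes in the pooled call. The others were erfa-3 (126.8), for a release factor, ifet-1 (111.5), a binding partner of eIF4E, drr-2 (107.2), an eIF4H relative, and gfm-1 (96.8), a mitochondrial elongation factor. The genes for eIF4A (inf-1, 68.4) and eIF5B (iffb-1, 65.2) lay below the threshold, and the eEF2 kinase gene efk-1 and gcn-1 were among those with no summit in any list. On the autosomes, IDR summits were found at 20 of 76 cytosolic ribosomal protein genes (26.3%), 4 of 70 mitochondrial ribosomal protein genes (5.71%) and 1 of 33 proteasome genes (3.03%), beside 6 of 68 for the translation factors and synthetases.

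**Figure D4:**
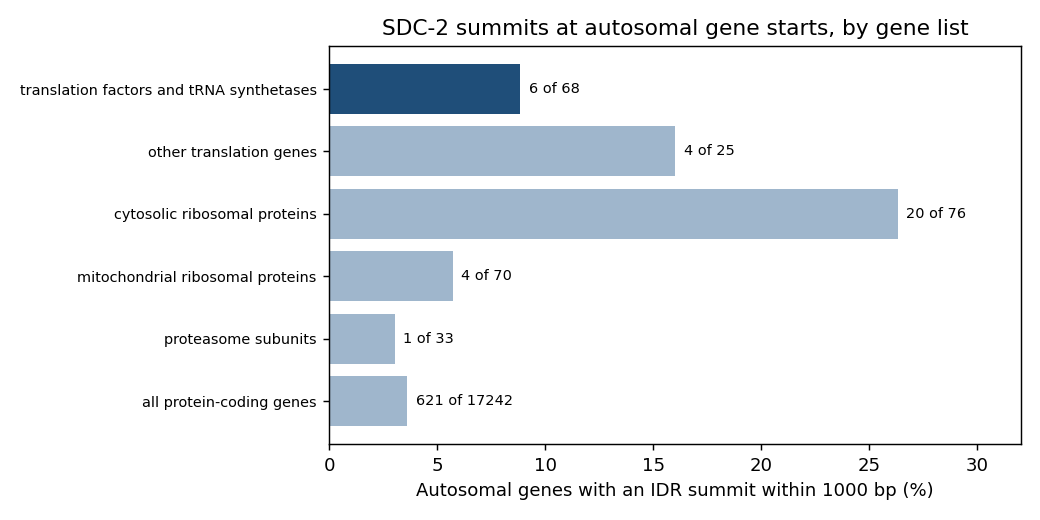
Percent of autosomal genes that had an IDR summit, by gene list, with counts at the bars. The translation factors and synthetases (8.82%) lie between the cytosolic ribosomal proteins (26.3%) and all protein-coding genes (3.60%).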

How the data were processed

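Peak lists of 2 biological replicates were used, on the ce11 build. The authors' lists were made, per the deposited README texts, from the alignment of each replicate and from both together, always against one control alignment, and the IDR list comes from these lists. Which aligner, peak caller and IDR cut-off were used is not given in the sources. The deposited signal per peak was used to rank peaks within a list. The deposited −log10 q-value reached its maximum at 1149 of the 1344 IDR peaks and was not used. Peaks on the mitochondrial genome and the 4 ce10 lists were left out.

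Summits were set against every annotated transcript 5′ end (Ensembl release 115) with Python 3.11.15 and pandas 2.3.3. Positions count from 1, and ranks are among nuclear peaks. Sequences are from RefSeq WBcel235. Genes are named where they had an IDR summit, lay on X, had no summit, or were among the 10 strongest without an IDR summit, and other names are examples chosen after their values were seen. The gene families, the other lists and the alternatives were chosen with earlier results of these data known. The operon, repeat and tRNA comparisons were added later. No test was run, because there is 1 group and members are not replicates. The matching of summits to genes was checked on simulated data: 200 of 200 planted summits were found.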

Additional observations from a re-analysis of the deposited data

How the results depend on the processing

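The number of genes with an IDR summit was 8 at a distance of 500 bp and 11 at 2000 bp, beside 3.32 and 6.87% of all genes. It was 9 when only the gene record counted (beside 4.25%). It was 8 when only the nearest gene counted (beside 3.73%), which drops eef-1A.1. With the peak interval in place of the summit it was 10 (beside 5.22%). The 1343 strongest peaks of replicates 1 and 2 gave 9 and 10 genes, beside 4.58 and 4.49% of all genes. Of these, 3 and 2 were on X and 6 and 8 autosomal. The full replicate lists gave 46 and 47 genes with any summit, beside 45.5 and 43.7% of all genes. Without summits near tRNA or snoRNA genes, an alternative chosen after seeing the data, 8 genes had an IDR summit, beside 4.08% of all genes. Among the 671 strongest IDR peaks the number was 4 (ears-2, eef-1A.2, eif-3.C and iff-2), 1 on X and 3 autosomal, beside 2.23% of all genes. Among the 4000 strongest pooled peaks 20 genes had a summit, beside 11.4% of all genes. These counts were lower because these lists are shorter. No paired analysis was possible because there is 1 group. The unknown depth limits what a missing summit means: it was not detected, not shown to be absent.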
